A study of Mus musculus with 6 samples.

Results

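The transcription factor NRF2 (gene Nfe2l2), its inhibitor KEAP1 and 8 genes under NRF2 control were followed in mouse liver RNA. These 10 genes (Nfe2l2, Keap1, Nqo1, Hmox1, Gclc, Gclm, Gsr, Txnrd1, Srxn1 and Osgin1) were picked by name from a table of 54532 genes. The libraries came from liver tissue of hepatocyte-specific G3bp1 knockouts (HKO, 3 libraries) and of floxed litter controls (Flox, 3 libraries). In both groups the mice were 6 weeks old when a high-fat diet began, and it lasted 12 weeks. G3BP1 binds RNA and seeds stress granules, and the study asked how it bears on steatohepatitis (NASH), in which a fatty liver is also inflamed. Neither the Cre line nor the deleted exons are stated in the sources used here, and the other cells of the liver keep the gene. Whether each library is 1 animal is not stated in the labels, and the p-values then measure only how far these libraries scatter, which may be technical.

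KEAP1 holds NRF2 in the cytosol and hands it to a ubiquitin ligase. Electrophiles and oxidants modify cysteines of KEAP1, and NRF2 then accumulates, pairs with small MAF proteins and binds antioxidant response elements beside its target genes. In the liver these targets make and recycle glutathione, reduce quinones and thiols, and break down haem. Because NRF2 is governed mostly through its degradation, the mRNA of Nfe2l2 is a poor measure of its activity, and its target mRNAs are often read in its place.

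The core letters of an antioxidant response element, TGACNNNGC, were searched on both strands in the 250 bases before each RefSeq start site (GRCm38.p6). Of the 10 genes, 7 had at least 1 start in that table, with 9 windows in all, and the motif was found in 3 windows, of 3 genes, Gclm, Nfe2l2 and Txnrd1. Among all 32851 windows of that length 10.2% held it. The 3 matches are shown because they are the stretches of these promoters with the letters NRF2 is known to bind. A match is a run of letters and not a measured binding site. Each is printed 5′ to 3′ on the minus strand of its chromosome, with the motif in capitals:
Gclm, chr3:122245403-122245451, 134 to 126 bases before the start, in no annotated gene: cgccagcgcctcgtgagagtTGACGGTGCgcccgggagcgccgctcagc
Nfe2l2, chr2:75704875-75704913, 240 to 232 bases before the start, in an exon of the noncoding gene E030042O20Rik on the plus strand: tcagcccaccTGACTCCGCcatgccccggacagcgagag
Txnrd1, chr10:82859094-82859142, 92 to 84 bases before the second of its 3 starts, within the Txnrd1 gene but in no exon: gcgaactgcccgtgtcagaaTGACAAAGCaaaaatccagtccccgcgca
The windows of Keap1, Nqo1, Osgin1 and Srxn1 did not hold these letters.

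Gene-assigned reads numbered 15804115 to 17954066 per library. G3bp1 stood at 8.46, 8.46 and 9.10 FPKM (reads scaled by gene length and library size) in Flox 1, 2 and 3, and at 4.66, 4.27 and 4.44 FPKM in HKO 1, 2 and 3, which matched the labels. All 10 genes had at least 0.5 FPKM in at least 3 libraries and were tested, with 65 to 7910 reads per gene and library. Where genes are counted as lower or higher in mean, the means are those of log2(FPKM + 1). At an adjusted p under 0.05 in limma 0 of the 10 passed, where 0.00843% of the 11856 genes tested did (1 gene, lower in HKO). That gene was not G3bp1, which itself did not pass (log2 fold change, HKO minus Flox, -0.83, adjusted p = 0.11 in limma). Limma's voom on recovered reads called 0 of the 10 and 0.0253% of all genes. At an unadjusted p under 0.05 there was 1 of the 10, Nqo1, where 7.62% of all genes lay under it (4.55% lower and 3.08% higher in HKO). The groups did not overlap in 2 of the 10, Nqo1 and Gclm, where 13.3% of all genes did not. In both genes the HKO libraries lay below (7.21% of all genes), and in 0 of the 10 they lay above (6.06% of all genes).

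**Figure D1:**
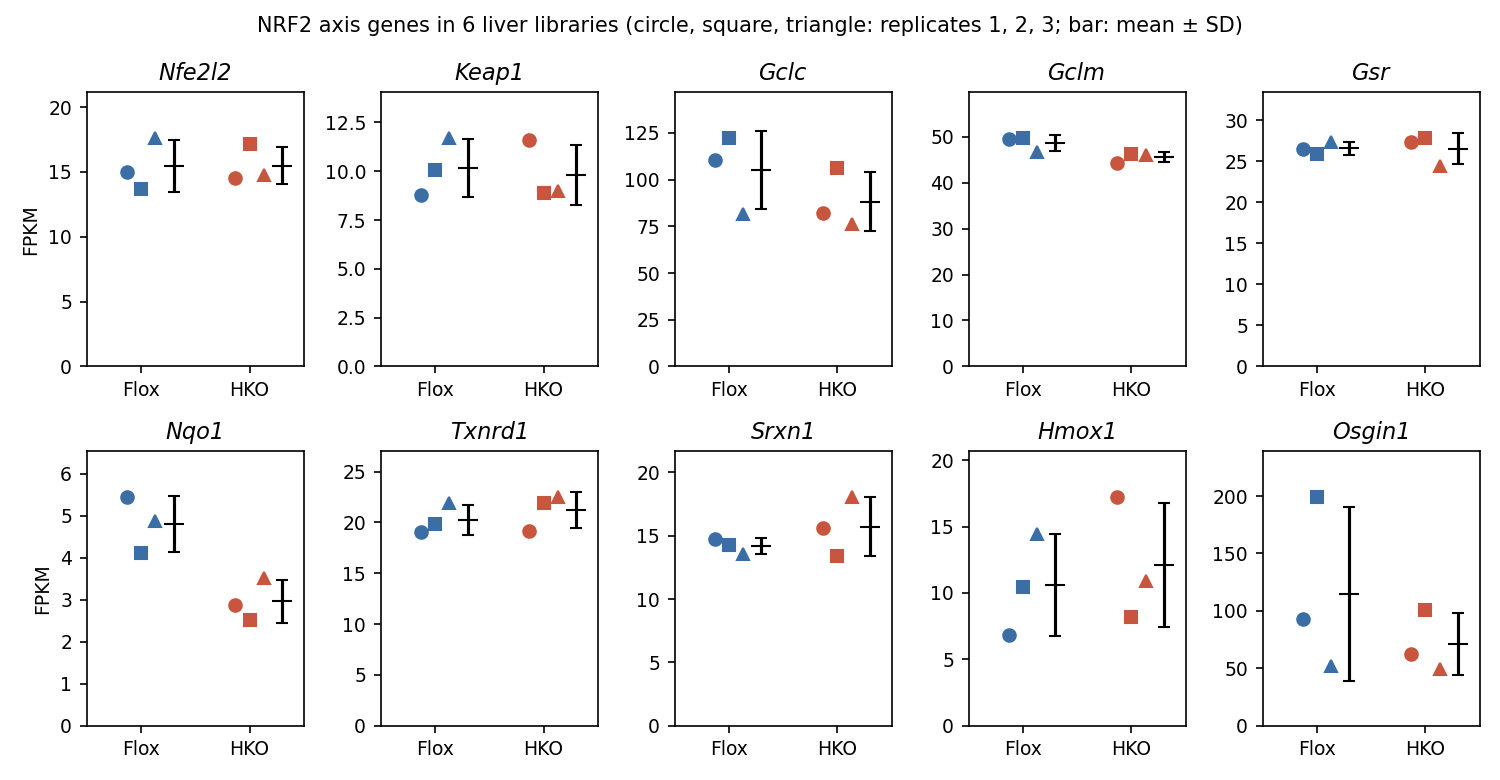
FPKM of the 10 genes (y axes, each from 0) in the 3 Flox (blue) and 3 HKO (red) libraries, with circles, squares and triangles for replicates 1, 2 and 3 and black bars for the group mean ± SD. Nqo1 lies at 4.12 to 5.45 FPKM in Flox and 2.51 to 3.51 in HKO, while Nfe2l2 and Keap1 overlap between the groups.

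The mRNAs of the 2 regulators overlapped between the groups. Nfe2l2 (ENSMUSG00000015839, chromosome 2, 75675513 to 75704641, minus strand, GRCm38) stood at 15.0, 13.7 and 17.6 FPKM in Flox 1, 2 and 3 and at 14.5, 17.2 and 14.7 FPKM in HKO 1, 2 and 3. Flox 3 and HKO 2 were the high libraries of their groups, and the means were 15.4 ± 2.0 for Flox and 15.5 ± 1.45 FPKM for HKO (SD, n = 3). The log2 fold change (HKO minus Flox, on log2(FPKM + 1)) was 0.01 with a 95% interval of -0.29 to 0.30 and an adjusted p of 0.991 in limma. Keap1 (ENSMUSG00000003308, chromosome 9, 21229730 to 21239361, minus strand) encodes the adaptor that presents NRF2 for degradation. Flox livers held 8.76, 10.1 and 11.7 FPKM of it, and HKO livers 11.6, 8.86 and 9.01 FPKM. Flox 3 and HKO 1 were high and the others near 9 to 10 FPKM, so the groups overlapped. Its log2 fold change was -0.05 (95% interval -0.39 to 0.29, adjusted p = 0.929 in limma). The antisense gene Gm16754 shares 10.9% of the exon bases of Keap1, and because the libraries carry no strand information the reads of the pair cannot be separated.

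Of the 3 genes of glutathione synthesis and recycling, 2 had lower means in HKO and the third was level. Gclc (ENSMUSG00000032350, chromosome 9, 77754535 to 77794485, plus strand) encodes the catalytic subunit of glutamate-cysteine ligase, the rate-limiting step of glutathione synthesis. It stood at 111, 122 and 81.8 FPKM in Flox 1, 2 and 3 and at 82.0, 106 and 76.4 FPKM in HKO 1, 2 and 3. Flox 1, Flox 2 and HKO 2 were high, and Flox 3, HKO 1 and HKO 3 lay within 6 FPKM of each other. The means were 105 ± 20.9 and 88.3 ± 16.0 FPKM (SD, n = 3), with a log2 fold change of -0.24 (95% interval -0.70 to 0.22, adjusted p = 0.74 in limma, exact permutation p = 0.3).

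Gclm (ENSMUSG00000028124, chromosome 3, 122245557 to 122270732, plus strand), which encodes the modifier subunit that raises the activity of the ligase, varied little. Flox livers held 49.5, 49.8 and 46.7 FPKM of it, and HKO livers 44.3, 46.3 and 46.0 FPKM. Each HKO library lay below each Flox library, but HKO 2 and Flox 3 were less than 1 FPKM apart. The mean was 6.43% lower in HKO (log2 fold change -0.09, 95% interval -0.32 to 0.13, adjusted p = 0.779 in limma). The exact permutation p was 0.1, the smallest that 3 against 3 libraries allow. This order depended on the scaling: with each library rescaled to a fixed sum (TPM) the log2 fold change was 0.08, after quantile normalization it was 0.03, and the groups overlapped under TPM and when scaled by assigned reads. The genes Gm17494 and Gm6061 share 4.71% and 3.88% of its exon bases.

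In FPKM, which is per length, Gclc mRNA exceeded Gclm mRNA in every library. The ratio was 2.24, 2.46 and 1.75 in Flox 1, 2 and 3 and 1.85, 2.30 and 1.66 in HKO 1, 2 and 3, with overlapping groups (2.15 ± 0.362 and 1.94 ± 0.328, SD, n = 3). It was computed after the values were seen and was not tested. Gsr (ENSMUSG00000031584, chromosome 8, 33652523 to 33698163, plus strand) encodes glutathione reductase, which returns oxidised glutathione to its reduced form with NADPH. Flox livers held 26.4, 25.9 and 27.4 FPKM of it, and HKO livers 27.3, 27.9 and 24.4 FPKM. The groups overlapped, with means of 26.6 ± 0.759 and 26.5 ± 1.84 FPKM and a log2 fold change of 0.00 (95% interval -0.24 to 0.23, adjusted p = 0.995 in limma).

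Nqo1 (ENSMUSG00000003849, chromosome 8, 107388225 to 107403206, minus strand) encodes NAD(P)H quinone dehydrogenase, which reduces quinones in a single step and is a classical NRF2 target. It stood at 5.45, 4.12 and 4.87 FPKM in Flox 1, 2 and 3 (130, 95 and 127 reads) and at 2.87, 2.51 and 3.51 FPKM in HKO 1, 2 and 3 (79, 65 and 101 reads). Every HKO library lay below every Flox library. The means were 4.81 ± 0.665 FPKM in Flox and 2.96 ± 0.507 FPKM in HKO (SD, n = 3), the latter 38.4% lower. The log2 fold change was -0.55 (SE 0.134, 95% interval -0.87 to -0.24) with an unadjusted p of 0.00423, and it did not pass over all genes (adjusted p = 0.58 in limma, exact permutation p = 0.1). Its mean was lower in HKO under each of the 14 alternatives that tested it, at -0.70 to -0.47, with adjusted p-values of 0.253 to 0.989. Under TPM the groups overlapped, with Flox 2 at 8.38 and HKO 3 at 8.51 TPM.

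Txnrd1 and Srxn1, which mend oxidised protein thiols, had slightly higher means in HKO and overlapped between the groups. Txnrd1 (ENSMUSG00000020250, chromosome 10, 82833951 to 82897712, plus strand) encodes cytosolic thioredoxin reductase, and stood at 19.1, 19.8 and 21.9 FPKM in Flox and at 19.2, 21.9 and 22.5 FPKM in HKO. Flox 1 and HKO 1 were the low libraries of their groups, and the log2 fold change was 0.06 (95% interval -0.20 to 0.32, adjusted p = 0.876 in limma). Srxn1 (ENSMUSG00000032802, chromosome 2, 152105516 to 152111376, plus strand) encodes sulfiredoxin, which repairs overoxidised peroxiredoxins. It stood at 14.8, 14.3 and 13.5 FPKM in Flox and at 15.6, 13.4 and 18.1 FPKM in HKO, where HKO 1 and HKO 3 lay above the Flox livers and HKO 2 below them. Its means were 14.2 ± 0.617 and 15.7 ± 2.33 FPKM, with a log2 fold change of 0.13 (95% interval -0.16 to 0.42, adjusted p = 0.769 in limma). Without HKO 3 it was 0.03, and under TPM it was 0.30 with every HKO library above every Flox library (adjusted p = 0.429 in limma).

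Hmox1 (ENSMUSG00000005413, chromosome 8, 75093621 to 75100589, plus strand) encodes haem oxygenase 1, which opens the haem ring, and is highly expressed in macrophages that clear red cells. It stood at 6.80, 10.4 and 14.5 FPKM in Flox 1, 2 and 3 and at 17.2, 8.18 and 10.9 FPKM in HKO 1, 2 and 3. HKO 1 and Flox 3 were highest and Flox 1 and HKO 2 lowest, so the spread within each group was wider than the gap between the means (10.6 ± 3.84 and 12.1 ± 4.65 FPKM, SD, n = 3). The log2 fold change was 0.18 (95% interval -0.59 to 0.95, adjusted p = 0.88 in limma). Leaving out Flox 1 turned it to -0.08 and leaving out HKO 1 to -0.09, and it was 0.41 without Flox 3 and 0.40 when HKO 2 was dropped.

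Markers of Kupffer cells, the resident macrophages of the liver, differed between libraries beside Hmox1. All 11 markers were measured and above 0 in every library, and their summed level was 148, 169 and 271 FPKM in Flox 1, 2 and 3 and 362, 222 and 274 FPKM in HKO 1, 2 and 3. HKO 1 had the highest sum and Flox 1 the lowest, as for Hmox1, while HKO 3, Flox 3, HKO 2 and Flox 2 followed in the order of the sums and Flox 3, HKO 3, Flox 2 and HKO 2 in that of Hmox1. In HKO the mean of all 11 was higher, under each of the 3 other scalings too, with a median log2 fold change of 0.70, and 0 of them passed (adjusted p of at least 0.58 in limma). At an unadjusted p under 0.05 in limma there were 4 of the 11, all higher in HKO (3.08% of all genes tested). In 4 of the 11 every HKO library lay above every Flox library in FPKM (6.06% of all genes). The part of the 11 markers in the Hmox1 values was not tested. In bulk liver, more or fewer cells of a type and more or less RNA per cell cannot be told apart.

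**Figure D2:**
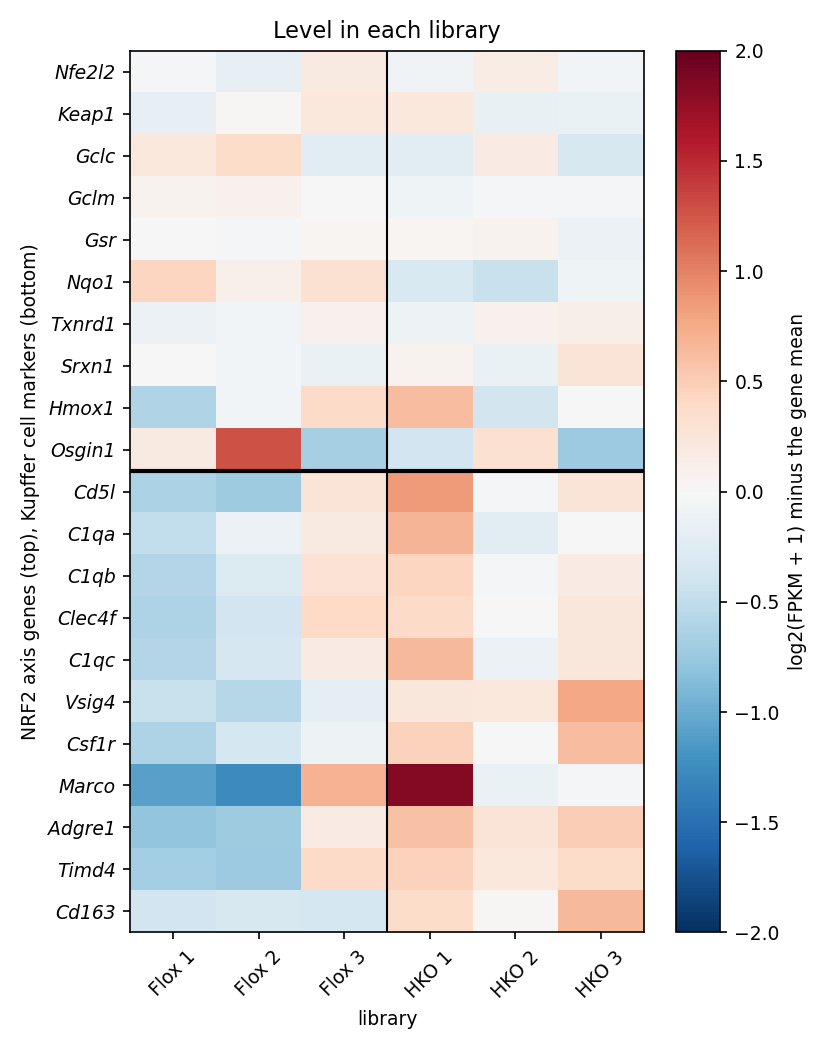
Level of the 10 genes (top) and 11 Kupffer cell markers (bottom) in each library (columns), as log2(FPKM + 1) minus the mean of the gene over the 6 libraries (red above, blue below). Hmox1 is highest in HKO 1 (0.62) and lowest in Flox 1 (-0.60), and Osgin1 reaches 1.27 in Flox 2.

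Osgin1 (ENSMUSG00000074063, chromosome 8, 119434124 to 119446256, plus strand), a growth inhibitor induced by oxidative stress, varied most among the 10 genes. It stood at 93.3, 199 and 51.6 FPKM in Flox 1, 2 and 3 and at 62.8, 101 and 49.4 FPKM in HKO 1, 2 and 3. Flox 2 was 4.03 times HKO 3, and Flox 3 lay among the HKO livers. The means were 115 ± 76.1 and 71.1 ± 26.8 FPKM (SD, n = 3), with a log2 fold change of -0.53 (95% interval -1.74 to 0.68, adjusted p = 0.766 in limma). That difference rested on single libraries, being -0.03 when Flox 2 was left out and -1.0 when Flox 3 was, and -0.82 when HKO 2 was and -0.31 when HKO 3 was. Osgin1 and Gclc ranked the libraries alike except that HKO 2 and Flox 1 changed places, with Flox 2 highest and HKO 3 lowest in both.

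Side by side, 6 of the 10 genes had a lower mean in HKO and 4 a higher one, where 51.2% of all genes tested had a lower mean. The median log2 fold change over the 10 was -0.03, against -0.01 over all genes tested. Under TPM, which moved the median of all genes to 0.15, 3 of the 10 were lower, and 5 lay below that median. After quantile normalization 4 of the 10 lay below the median of all genes. Besides Gclm, the direction of Gsr and Keap1 turned under TPM, and that of Nfe2l2, Gsr, Keap1 and Hmox1 with single libraries left out. The intervals were narrowest for Gclm and Gsr and widest for Hmox1 and Osgin1. The SD within groups on the log2(FPKM + 1) scale was 0.04 for Gclm and 0.07 for Gsr, smaller than in all but 1.39% and 9.06% of the genes tested. It was 0.50 for Hmox1 and 0.78 for Osgin1, larger than in 95.3% and 98.6% of them.

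**Figure D3:**
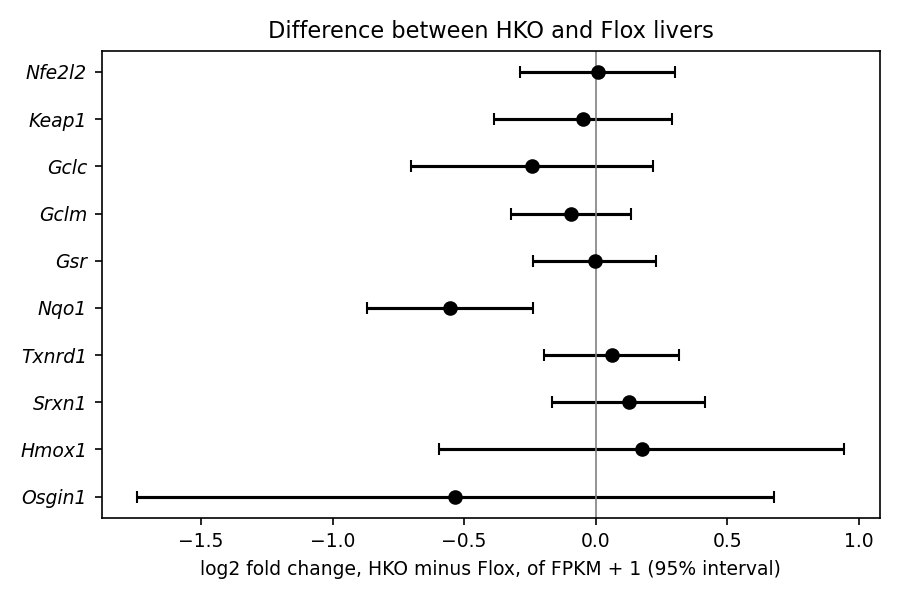
Log2 fold change (HKO minus Flox, on log2(FPKM + 1); x axis) of the 10 genes, with points for the limma estimate and bars for its 95% interval, not adjusted for the number of genes. The interval of Nqo1 (-0.87 to -0.24) lies below 0, and those of the other 9 genes include 0.

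By level per length over the 6 libraries, Gclc (mean 96.6 FPKM) and Osgin1 (92.9) came first and did not differ beyond their spread. Gclm (47.1), Gsr (26.6) and Txnrd1 (20.7) followed, each below the one before it in every library, although the ranges of Osgin1 and Gclm touched. Nfe2l2 (15.5), Srxn1 (15.0), Hmox1 (11.3) and Keap1 (10.004) each overlapped with the next in this order, and Nqo1 (3.89) was lowest in every library.

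The genes whose pattern was most like that of 3 members were sought among 10185 tested protein-coding genes. All members of the NRF2 axis, predicted genes and genes with clone names or names starting with a digit were left out. Likeness was the mean absolute difference over the 6 libraries between log2(FPKM + 1) values centred on the mean of each gene. Nearest to Nqo1 were the calcium-binding protein gene S100a11 (0.0667), Spata2l (0.0705) and the glutathione transferase gene Gsta3 (0.0721). S100a11 stood at 10.8, 8.96 and 9.31 FPKM in Flox and at 6.51, 5.16 and 7.92 FPKM in HKO. Nearest to Hmox1 were the complement gene C1qa (0.0988), the Fc receptor adaptor gene Fcer1g (0.0994) and Themis2 (0.117), a signalling gene of immune cells. C1qa belongs to the Kupffer cell markers above, and Fcer1g stood at 8.78, 10.3 and 14.2 FPKM in Flox and at 18.8, 8.57 and 10.7 FPKM in HKO. Nearest to Nfe2l2 were Dcaf6 (0.0254), Nae1 (0.0299) and Mdm4 (0.0301). Over the 6 libraries they ranged from 3.93 to 5.27, from 2.07 to 2.95 and from 1.73 to 2.44 FPKM.

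Among the partners of NRF2 and the machinery of its degradation, 8 of 11 tested genes had a lower mean in HKO, and 6 of 11 under TPM, and 0 passed. Because TPM raised the median of all genes, counts are also given against that median, and 8 of 11 lay below it under FPKM and under TPM. TPM multiplies each library by a single factor, which moves the genes and their median almost alike. Both counts could thus differ only a little, here or below. Quantile normalization can change such counts. It also gave 8 of 11, and its count is given below where it differed. The median log2 fold change of these 11 genes was -0.18. Sqstm1, which encodes the autophagy receptor p62 that can sequester KEAP1, had means of 132 ± 8.98 (Flox) and 108 ± 9.74 FPKM (HKO) that did not overlap by library (adjusted p = 0.651 in limma). Mrnip on the other strand shares 17.3% of its exon bases. The small MAF genes Mafg, Mafk and Maff stood at 14.9 ± 1.63 and 12.9 ± 0.0461, at 3.94 ± 1.01 and 2.94 ± 0.0941, and at 2.21 ± 1.21 and 1.28 ± 0.232 FPKM in Flox and HKO. These dimer partners thus had lower FPKM means, and Mafg did not overlap between the groups in FPKM. Overlap of list genes is given for FPKM only, and for Gclm and Nqo1 it depended on the scaling. Bach1, a repressor at the same elements, stood at 5.94 ± 1.34 and 6.13 ± 1.29 FPKM, and the NRF2 relative Nfe2l1 at 24.7 ± 1.55 and 21.8 ± 1.99.

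Of 20 further NRF2 target genes 16 were tested, of which 14 had a lower mean in HKO, and 10 of 16 under TPM, with a median of -0.18. Below the median of all genes lay 14 of 16 under either scaling, and 13 of 16 after quantile normalization. None of the 16 passed in limma, and 3 lay at an unadjusted p under 0.05, all lower in HKO (4.55% of all genes tested). These were the aldehyde oxidase gene Aox1, at 8.86 ± 0.632 FPKM in Flox and 6.70 ± 0.379 in HKO, the esterase gene Esd, at 88.7 ± 7.12 and 66.2 ± 3.86, and Ugdh, which supplies UDP-glucuronic acid, at 18.1 ± 2.64 and 14.2 ± 1.04. All 3, picked for a low p, were without overlap between the groups in FPKM, where 7.21% of all genes had every HKO library below. Ftl1, the ferritin light chain, stood at 1056 ± 143 and 839 ± 89.7 FPKM with overlap. Gm10252 on the other strand and Gm22133 on the same strand share 26.5% and 8.13% of the exon bases of Ftl1. Slc7a11, the cystine importer, was close to absent in these livers, with 2, 0 and 2 reads in Flox and 0 in each HKO library, where a count of 0 allows up to 3 reads.

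Genes that supply and break down glutathione had lower FPKM means as well, with 0 at an unadjusted p under 0.05. For glutathione precursors and turnover, the log2 fold change was below 0 in all 15 tested genes, and in 8 of 15 under TPM, with a median of -0.20, and 0 passed. Below the median of all genes lay 14 of 15 under both scalings, and 12 of 15 after quantile normalization. The exception in FPKM was Oplah, which recycles 5-oxoproline to glutamate and was level, at 17.35 FPKM in Flox and 17.36 in HKO. Bhmt, which remethylates homocysteine with betaine, had means of 624 ± 220 (Flox) and 341 ± 172 FPKM (HKO), and its libraries overlapped (adjusted p = 0.667 in limma). Ahcy, which releases homocysteine, stood at 535 ± 41.9 and 438 ± 45.6 FPKM without overlap. The cysteine-making enzyme gene Cth stood at 184 ± 40.4 and 139 ± 12.3 FPKM, the dipeptidase gene Cndp2 at 20.7 ± 2.13 and 17.3 ± 1.96, and glutathione synthetase, Gss, at 11.8 ± 1.28 and 10.2 ± 1.59. Acss2, Gssos2 and Gssos1, all on the other strand, share 6.68%, 6.51% and 5.44% of the exon bases of Gss. In the thioredoxin and glutaredoxin system 8 of 12 were lower (5 of 12 under TPM, median -0.13), and 8 of 12 lay below the median of all genes under both scalings. There Txnl1, a thioredoxin-like protein gene, stood at 38.9 ± 1.40 and 30.6 ± 0.801 FPKM and Glrx3 at 13.2 ± 0.514 and 11.3 ± 0.176, both without overlap. Glrx2, a mitochondrial glutaredoxin gene, went the other way without overlap, at 2.36 ± 0.125 and 2.61 ± 0.142 FPKM (adjusted p = 0.747 in limma). Txn1, the substrate of thioredoxin reductase, stood at 209 ± 31.5 and 167 ± 26.7 FPKM, its inhibitor Txnip at 70.6 ± 27.4 and 50.3 ± 14.1, the glutaredoxin gene Glrx at 5.46 ± 0.357 and 7.43 ± 1.94 and the mitochondrial peroxidase gene Prdx3 at 81.2 ± 6.11 and 68.9 ± 6.81. An antisense gene, Gm15441, shares 19.4% of the exon bases of Txnip.

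NADPH drives Gsr, Txnrd1 and Nqo1, and of the 6 genes of its supply 5 had a lower mean in HKO (2 of 6 under TPM), with 0 passing. Below the median of all genes lay 5 of 6 under both scalings. G6pdx, the entry enzyme of the pentose phosphate pathway, had means of 1.15 ± 0.169 (Flox) and 1.6 ± 0.277 FPKM (HKO), and its libraries overlapped (adjusted p = 0.651 in limma). Its reads numbered 44 to 101 per library, and Ikbkg on the other strand shares 13.6% of its exon bases. The pentose phosphate genes Taldo1 and Pgd stood at 61.1 ± 10.4 and 47.8 ± 4.67 FPKM and at 6.02 ± 1.05 and 5.57 ± 2.31. Idh1, cytosolic isocitrate dehydrogenase, stood at 179 ± 7.53 and 148 ± 23.5 FPKM. Me1, the malic enzyme, stood at 25.7, 21.9 and 54.5 FPKM in Flox and at 26.5, 18.6 and 54.5 FPKM in HKO, so Flox 3 and HKO 3 were high alike.

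**Figure D4:**
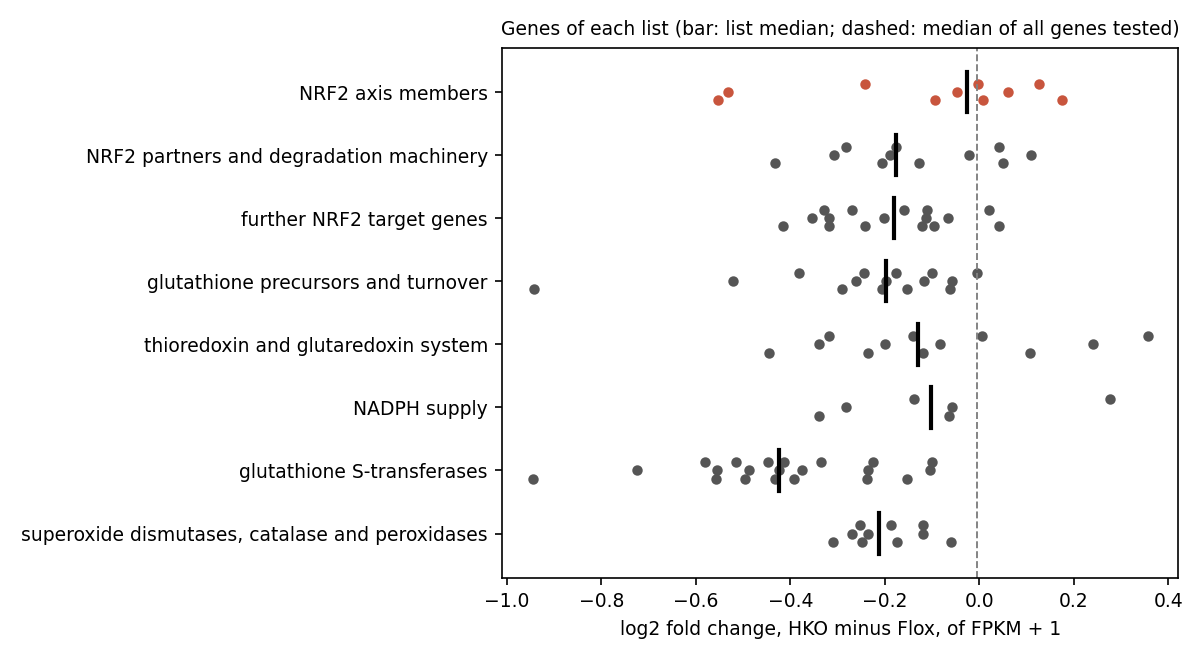
Log2 fold change (HKO minus Flox, on log2(FPKM + 1); x axis) of each tested gene in 8 lists (rows; points are genes, spread vertically for legibility), with a bar for the median of the list and a dashed line for the median of all genes tested (-0.01). The median of the 10 NRF2 axis genes lies at -0.03, and that of the glutathione S-transferases at -0.42.

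The glutathione S-transferases, which spend the glutathione that Gclc and Gclm help to make, are also NRF2 targets in part and were compared as the nearest family. All 21 had a lower mean in HKO (18 of 21 under TPM), with a median of -0.42, and 21 of 21 lay below the median of all genes under both scalings. At an unadjusted p under 0.05 and lower in HKO there were 8 of the 21 and 1 of the 10 NRF2 axis genes, where 4.55% of all genes tested were. The further NRF2 targets held 3 of 16, and the thioredoxin and glutaredoxin system 1 of 12. The NRF2 partners, glutathione precursors, NADPH supply and the list of superoxide dismutases, catalase and peroxidases held 0 each. Neither among the transferases nor among the 10 did a gene pass in limma, and the difference between these sets was not tested. Among the transferases Gstm2 had means of 37.1 ± 7.50 (Flox) and 18.6 ± 1.43 FPKM (HKO), with an adjusted p of 0.465 in limma. Gstt1 stood at 205 ± 14.6 and 139 ± 7.62 FPKM, Gsta4 at 37.2 ± 5.19 and 24.9 ± 2.41 and Gsto1 at 39.9 ± 2.32 and 28.1 ± 3.83. Of 10 superoxide dismutases, catalase and peroxidases all had a lower mean (6 of 10 under TPM), with a median of -0.21. All 10 lay below the median of all genes under both scalings, and 8 of 10 after quantile normalization. Catalase, Cat, stood at 1464 ± 108 and 1182 ± 102 FPKM.

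Hepatocyte markers matched the labelled tissue, with albumin, Alb, at 25430 to 33879 FPKM and Apoa1 at 5484 to 8329 FPKM. Of 8 such markers 3 had a log2 fold change above 0 and 5 below it (5 and 3 under TPM), with a median of -0.08, and Alb was level (-0.01). Against the median of all genes, 5 of 8 lay below under FPKM, 4 of 8 under TPM and 3 of 8 after quantile normalization. The hepatocyte markers summed to 44780 to 46656 FPKM in Flox and 38789 to 47827 in HKO. Zonation markers separate hepatocytes near the central vein from those near the portal vein. All 8 pericentral genes had a log2 fold change below 0 (4 of 8 under TPM, median -0.17). Below the median of all genes lay 8 of 8 under both scalings and 7 of 8 after quantile normalization. Of the periportal genes, 5 of 8 were below 0 (4 of 8 under TPM, median -0.10). Against the median of all genes, 5 of 8 lay below under FPKM, and 4 of 8 under TPM and after quantile normalization. Among other cells of the liver, 5 of 7 endothelial markers had a log2 fold change above 0 (7 of 7 under TPM, median 0.14), and 5 of 7 lay above the median of all genes under both scalings. Of 7 stellate cell markers 4 had a log2 fold change above 0 (5 of 7 under TPM, median 0.01). Above the median of all genes lay 4 of 7 under both scalings and 3 of 7 after quantile normalization. Of 8 markers of monocytes and recruited macrophages, the 3 that were tested, Cd9, Lyz2 and Spp1, were above 0 (3 of 3 under TPM, median 0.41), and Spp1 also marks bile duct cells. Ly6c2 and Ccr2, below the filter, had lower means in HKO, at 0.658 and 0.42 FPKM and at 0.348 and 0.293 FPKM. Ly6c2 was high in Flox 3 alone (1.32 FPKM). Trem2, Itgam and Gpnmb, also below the filter, had higher means in HKO. They stood at 0.17 and 0.199, at 0.0841 and 0.0869, and at 0.036 and 0.0464 FPKM in Flox and HKO. Of 6 neutrophil markers the 2 tested, S100a8 and S100a9, were below 0 (also under TPM), and of 4 tested biliary markers 3 were above 0 (4 of 4 under TPM). The part of these markers in the values of the NRF2 axis was not tested.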

How the data were processed

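The authors deposited 1 table of FPKM values, 1 per gene and library, with gene coordinates and lengths. Per the submitters' processing notes the genome build was GRCm38, also given as mm10. No aligner, counter or annotation release is named in the sources used here. Per the labels' protocols, 1.3 µg of total RNA per sample entered an unstranded NEBNext Ultra library. The 10 genes and all lists were chosen with earlier results of these data known.

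FPKM are not counts, so log2(FPKM + 1), with a pseudocount of 1, was tested in limma 3.58.1 (R 4.3.3, trend and robust moderation, statmod 1.5.0), two-sided, HKO against Flox. A gene entered where 3 or more of the 6 libraries reached 0.5 FPKM (11856 genes), with Benjamini-Hochberg adjustment over all of them and a threshold of 0.05. The log2(FPKM + 1) scale understates changes of low genes. The two-sided exact permutation test of a gene reaches 0.1 at the lowest. The fit was tested on simulated data.

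Multiplied by gene length, FPKM gave whole multiples of a step taken as 1 read (100% of values above 0 within 0.02 reads), which gave the reads used for depth and for voom. At a length of 1 kb, 14.9 to 18.5 reads made up 1 FPKM. The limit of 3 reads for a count of 0 covers counting error only. Exon overlaps and near-identical transcripts (blastn 2.17.0, at least 97% identity over 80% of the length) were taken from GENCODE M21, which holds 99.8% of the gene identifiers. No copy was found for the 10 genes. For G3bp1 the search found 1 copy, the gene Gm5913. Of the 10 genes, 7 matched the RefSeq promoter table (GRCm38.p6).

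Named genes are the 10 members, G3bp1, up to 4 genes per list with the smallest p, and Nfe2l1, Bach1, Slc7a11, Gss, G6pdx, Me1, Txn1, Txnip and Sqstm1 in any case. Oplah and Glrx2 were named outside this rule, Oplah for its level values and Glrx2 for going the other way. Marker genes named are the 2 hepatocyte genes with the highest mean, the 2 tested neutrophil genes and all those of monocytes and recruited macrophages. For likeness they are the 3 nearest genes. Lists got no set test. Alternatives were another pseudocount, other filters, TPM, quantile normalization, assigned-read scaling, voom, plain moderation, a replicate block and each library left out.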

Additional observations from a re-analysis of the deposited data

How the results depend on the processing

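None of the 10 genes passed in limma under any alternative run. The direction was kept in every alternative for Gclc, Nqo1, Osgin1, Srxn1 and Txnrd1. Under TPM, log2 fold changes turned to 0.083 (Gclm), 0.17 (Gsr) and 0.12 (Keap1). After quantile normalization they turned to 0.034 (Gclm) and 0.072 (Gsr), and scaled by assigned reads to 0.073 (Gsr) and 0.024 (Keap1). With 1 library left out the ranges were -0.038 to 0.053 (Gsr), -0.069 to 0.10 (Nfe2l2), -0.092 to 0.41 (Hmox1) and -0.16 to 0.049 (Keap1). The median of the 10 was 0.15 under TPM, 0.047 after quantile normalization, 0.048 scaled by assigned reads, and -0.083 to 0.033 with 1 library left out. TPM divides each library by its sum of FPKM. That sum was 494433, 491399 and 431497 in Flox 1, 2 and 3 and 414411, 422735 and 412344 in HKO 1, 2 and 3. Every HKO sum lay below every Flox sum, so TPM raised HKO values against Flox values. Why the sums differed, and the cause of the other shifts, was not tested. Over all genes, 1 was lower in HKO in limma. There were 0 with no filter, 2 at a mean of at least 5 FPKM (a filter that leaves out Nqo1), 3 with voom, and 0 to 12 lower and 0 to 1 higher with 1 library left out. Of 254 list medians under alternatives 20 moved by more than the spread between libraries. Dropping the filter, plain moderation and the replicate block leave these medians unchanged by design. Under TPM the medians moved for the lists of NRF2 partners, further targets, precursors, thioredoxins, transferases and peroxidases, and not for NADPH supply.

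With the replicate block, 0 genes were lower. Deviations from the group means of same-numbered libraries correlated at 0.02, 0.01 and 0.07 across genes, and not every library correlated best with its own number, so the numbers were not taken as pairs. With 65 reads in its lowest library, Nqo1 had the fewest reads of the 10.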

Other observations

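Haem, the substrate of haem oxygenase 1, comes largely from red cells, and erythroid markers were measured beside Hmox1. The 5 tested ones all had lower HKO means, under each of the 3 other scalings too, with a median log2 fold change of -0.72, and 0 passed in limma. At an unadjusted p under 0.05 in limma there were 4 of the 5, all lower in HKO (4.55% of all genes tested). In 3 of the 5 every HKO library lay below every Flox library in FPKM (7.21% of all genes). The summed level of the erythroid markers was 330, 295 and 333 FPKM in Flox 1, 2 and 3 and 136, 270 and 207 FPKM in HKO 1, 2 and 3. HKO 1, with the lowest sum, had the highest Hmox1, and Flox 3, with the highest sum, had the second highest. No relation was tested.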
